A study of Rattus norvegicus with 90 samples.

Results

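The genes described here are those of cholesterol and fatty acid synthesis and of its control, followed in AR42J cells given the hormone gastrin, the translation inhibitor cycloheximide, or both. A list of 30 gene symbols was matched to the named probes of the array, and the probe with the highest mean over all 90 arrays stood for a gene. A named probe was found for 25 of the 30 genes, out of 13337 genes named on the array. Hmgcs1, Mvk, Lss, Insig1 and Fasn were not analysed here. Of the 25 genes, 24 had 1 probe and Tm7sf2 had 2.

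Cells make cholesterol from acetyl-CoA through mevalonate, isoprenoid units, squalene and lanosterol, and they make fatty acids from the same acetyl-CoA. Both routes are driven by the SREBP transcription factors, which SCAP carries from the endoplasmic reticulum to the Golgi for activation when membrane sterol is low, while INSIG proteins hold SCAP back when sterol is plentiful. An acinar cell of the pancreas keeps a large endoplasmic reticulum and secretory apparatus, for which these pathways supply membrane lipid.

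AR42J cells come from an acinar tumour of the rat pancreas and respond to gastrin, and their total RNA was measured on Illumina bead arrays. There were 34 arrays with gastrin, 9 with cycloheximide, 10 with gastrin and cycloheximide and 35 untreated controls, in 6 batches as the labels name them. Batches 2 and 3 ran from 0 to 14 h with gastrin or no stimulus, batches 4 and 5 held all 4 stimuli at 1, 2, 4 and 6 h, batch 6 held them at 4 h, and batch 1 held 14 h alone. No gastrin dose is stated in the labels, all samples come from 1 line, and the labels do not say whether batches were separate cultures, so a p-value measures the spread between these samples, which may be technical. A further 2 arrays of batch 3 at 12 h carry a title and a stimulus that contradict each other and entered no comparison.

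The deposited log2 values of 22523 probes ran from 5.51 to 14.84, and array medians spanned 6.403 to 6.406. All 10 acinar markers with a probe, digestive enzymes among them, lay above the 75th percentile of all probes. Above it too were 4 of 9 neuroendocrine, 2 of 4 hepatocyte and 1 of 2 ductal markers. All 4 fibroblast markers and all 3 immune or endothelial markers lay below the median, as did 3 of 4 adipocyte markers. The gastrin receptor gene Cckbr averaged 10.39. A score along the axis on which the 2 h controls of batches 4 and 5 differed from the other controls of those batches, computed without the genes described here, was above 0.25 on 15 of the 90 arrays. These were 9 gastrin arrays (1, 1.5, 2, 10 and 12 h of batch 2 and 1, 1.5, 2 and 14 h of batch 3), 2 controls (2 h of batches 4 and 5), 2 cycloheximide arrays (2 and 6 h of batch 4), 1 array with gastrin and cycloheximide (2 h of batch 5) and 1 of the ungrouped arrays. No gastrin or control array at 4 to 8 h was among them, and the results on the earlier and later hours are also given without the batches and hours that hold such an array. On the low side of the same axis, the 14 arrays at 4 h of batches 4 to 6 scored -0.52 to -0.26 and the 4 second arrays at 1 h of batches 4 and 5 scored -0.79 to -0.47. All 18 carry a title series other than that of the remaining arrays, which scored from -0.11 upward. The other controls that define the axis include 1 and 4 h arrays of that series, while the 2 h controls do not belong to it. Its low scores, and the high scores of the 2 h controls, are thus partly built into the axis. The 1 h gastrin and control arrays of batches 4 and 5 exist in both title series, and the 2 arrays of one batch and stimulus correlated at only 0.357 to 0.439 once each probe's mean was subtracted. Gastrin and control samples of a pair come from the same title series, or from both alike, and the part of the title series in the 4 h results was not tested beyond the 6 h values given below.

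The promoters of these genes are shown because the pathway is known for shared sites at which SREBP works together with NF-Y, a factor that binds CCAAT, and with Sp1, which binds GC boxes. The 250 bases before the annotated start came from RefSeq, assembly GRCr8, and 19 of the 25 genes matched an entry by symbol. The 5 printed here belong to genes whose levels changed below, at different steps of the pathway: Fdps and Msmo1, Sc5d, Acly and the SREBP-2 gene Srebf2. Each runs 5′ to 3′ along the strand of its gene, and capitals mark CCAAT on either strand, written ATTGG where it lies on the opposite one. Fdps lies on the minus strand at chr2:176804817-176805066, Msmo1 on the plus strand at chr16:29746863-29747112, Sc5d on the minus strand at chr8:51538278-51538527, Acly on the minus strand at chr10:85963632-85963881 and Srebf2 on the plus strand at chr7:115543057-115543306.
Fdps: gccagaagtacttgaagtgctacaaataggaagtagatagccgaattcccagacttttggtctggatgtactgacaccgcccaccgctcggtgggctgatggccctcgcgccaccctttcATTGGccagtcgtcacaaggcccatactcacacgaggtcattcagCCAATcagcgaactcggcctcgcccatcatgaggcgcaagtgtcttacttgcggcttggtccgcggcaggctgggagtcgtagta
Msmo1: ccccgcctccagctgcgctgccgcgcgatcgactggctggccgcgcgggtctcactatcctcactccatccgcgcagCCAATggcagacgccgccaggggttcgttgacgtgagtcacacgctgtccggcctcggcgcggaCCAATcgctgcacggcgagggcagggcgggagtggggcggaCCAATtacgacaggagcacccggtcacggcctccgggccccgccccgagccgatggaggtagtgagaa
Sc5d: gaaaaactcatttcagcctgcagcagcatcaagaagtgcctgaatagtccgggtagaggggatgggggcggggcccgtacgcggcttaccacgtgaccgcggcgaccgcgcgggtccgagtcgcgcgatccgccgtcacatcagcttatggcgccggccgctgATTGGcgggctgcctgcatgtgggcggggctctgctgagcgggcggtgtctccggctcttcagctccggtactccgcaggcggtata
Acly: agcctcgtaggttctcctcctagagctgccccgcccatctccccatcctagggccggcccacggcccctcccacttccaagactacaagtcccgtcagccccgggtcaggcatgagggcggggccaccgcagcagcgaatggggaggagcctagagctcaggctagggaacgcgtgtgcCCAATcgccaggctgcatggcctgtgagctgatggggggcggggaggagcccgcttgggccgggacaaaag
Srebf2: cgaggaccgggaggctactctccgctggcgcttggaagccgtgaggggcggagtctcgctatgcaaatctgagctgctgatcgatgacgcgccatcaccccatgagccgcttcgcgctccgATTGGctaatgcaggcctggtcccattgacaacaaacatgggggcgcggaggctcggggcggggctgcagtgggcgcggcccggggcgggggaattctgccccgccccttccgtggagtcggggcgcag

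CCAAT was present 3 times before Msmo1, 2 times before Fdps and once before Sc5d, Acly and Srebf2. Over both strands it was found before 14 of the 19 genes (73.7%), and in 34% of the 33469 rat promoters of the same length. The GC box GGGCGG was likewise found before 14 of the 19 (73.7%), and in 30.5% of all promoters. The E-box CACGTG was found before Sc5d and Scap (10.5%), and in 5.59% of all promoters. The letters TCACNCCAC, a form of the sterol regulatory element, were found in none of the 19 windows and in 0.974% of all promoters. These are matches of letters in the window and not measured sites. Pmvk, Fdft1, Sqle, Acaca, Elovl6 and Stard4 had no entry.

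The gastrin difference of these genes changed with the hour. In the first 2 h Stard4 and Srebf1 were higher and most others did not pass the test. At 4 h enzymes of both routes were lower, among them Acat2, Fdft1, Acly, Msmo1 and Scd, and at 6 h Acat2, Mvd, Srebf2 and Stard4 were lower. By 14 h Cyp51, Sc5d, Insig2 and Stard4 were higher. Gastrin samples were compared with the controls of the same batch and hour in limma, on the log2 scale, with p-values adjusted over all 22523 probes by the Benjamini-Hochberg method and a threshold of 0.05. The pairs of a batch share that batch, so the pairs counted below are not separate replicates of the whole course.

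Taken hour by hour, with 2 to 5 pairs an hour, the 25 genes gave 21 passing values. At 0.25 h none passed in the limma test, and 1 had an unadjusted p under 0.05, where 0% of all probes passed. At 0.5 h none passed, 1 had an unadjusted p under 0.05, and the share of all probes was 0.0355%. Stard4, which encodes a protein that carries cholesterol between membranes, was higher by 0.26 at 1 h, where 1.06% of all probes passed as higher. At 1.5 h Stard4 was higher by 0.30 and Srebf1, the gene of SREBP-1, by 0.40, against 3.31% of all probes higher. At 2 h Stard4 was higher by 0.20 and Srebf2 had a difference of -0.24, against 2.41% of all probes higher and 2.06% lower.

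At 4 h 7 of the 25 were lower and none higher, where 3.47% of all probes passed as lower. They were Acat2 at -0.46, Fdft1 at -0.42, Acly at -0.39, Msmo1 at -0.38, Scd at -0.33, and Sqle and Mvd at -0.31 each. At 6 h 4 were lower, against 2.13% of all probes: Acat2 at -0.33, Mvd at -0.30, Srebf2 at -0.27 and Stard4 at -0.24. So Stard4 passed the test in both directions, higher from 1 to 2 h and lower at 6 h. At 8 h none passed, 1 had an unadjusted p under 0.05, and 0.946% of all probes passed. Stard4 alone was higher at 10 h, by 0.32, against 1.35% of all probes. At 14 h 4 were higher and none lower, where 0.706% of all probes passed as higher: Sc5d by 0.48, Cyp51 by 0.47, Insig2 by 0.40 and Stard4 by 0.33. Without batch 2 the number of passing values over all hours was 3, and without batch 3 it was 2.

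**Figure D1:**
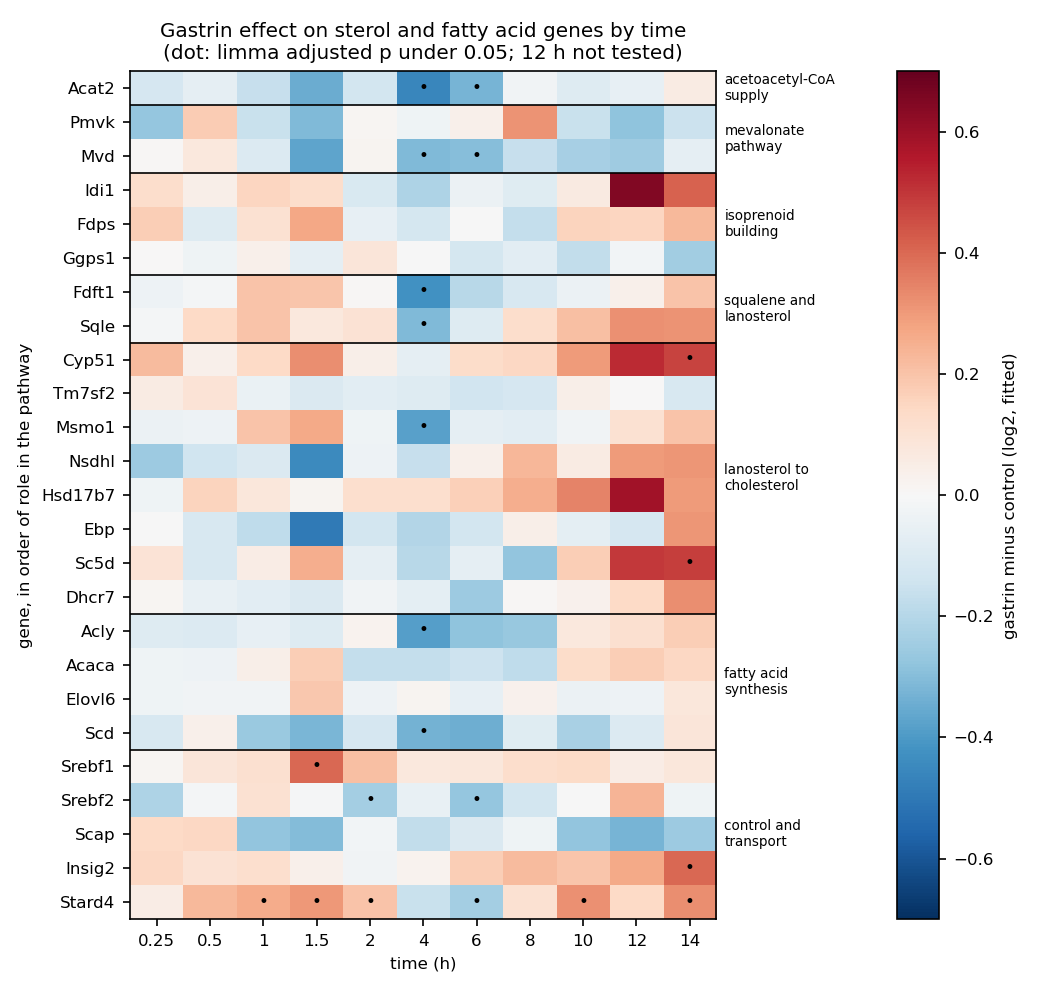
Fitted difference between gastrin and control (log2, colour) for 25 genes, one line per gene in order of role, at each hour. Dots mark limma adjusted p under 0.05, and 12 h holds 1 pair and no test; the 4 h column holds 7 dots, all on lower values, and the 14 h column 4 dots, all on higher values.

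Over 0.5 to 2 h, with 12 pairs, gastrin raised Stard4 and Srebf1 and lowered Acat2, and the remaining 22 genes did not pass. Of all probes 4.68% passed as higher and 4.53% as lower. With the test limited to probes above the median level, 21.1% passed in either direction, as did 4 of the 24 genes kept. The median difference over the 25 genes was 0.0065, with 14 above 0, and that over all probes was -0.0043.

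Stard4 had log2 levels of 10.97 to 11.69 with a median of 11.49 in gastrin samples, and of 10.63 to 11.44 with a median of 11.18 in controls. The groups overlapped, while every one of the 12 pairs was higher with gastrin, by 0.07 to 0.41. The fitted difference was 0.25 ± 0.03 (SE, limma adjusted p = 1.4e-05). Srebf1 had levels of 10.77 to 11.19 with a median of 11.11 with gastrin, and of 10.69 to 11.34 with a median of 10.82 in controls. It was higher in 9 of 12 pairs, and all 3 exceptions lay in batches 4 and 5, where the 1 h pairs differed by -0.21 and -0.05 and the 2 h pair of batch 4 by -0.03. The fitted difference of Srebf1 was 0.20 ± 0.05 (limma adjusted p = 0.00507). Acat2 encodes the cytosolic thiolase that joins acetyl units ahead of the mevalonate pathway. Its levels were 13.16 to 13.62 with a median of 13.30 with gastrin, and 12.99 to 13.82 with a median of 13.52 in controls, and it was lower in 9 of 12 pairs by -0.17 ± 0.06 (limma adjusted p = 0.0429).

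Leaving out the pairs that hold an array standing apart keeps 4 of the 12 pairs, those at 0.5 h of batches 2 and 3 and at 1 h of batches 4 and 5, and none at 1.5 or 2 h, so it changes the hours along with the arrays. In those 4 pairs none of the 25 passed in limma, 4 had an unadjusted p under 0.05, and 0.44% of all probes passed. Without batch 2 none passed (3 unadjusted, 1.02% of all probes) and without batch 3 Stard4 alone passed (0.95%). Without batches 4 and 5 in turn 8 and 6 passed, where 13.7% of all probes passed each time against 9.21% with all batches. In every one of the 15 alternatives Stard4 was higher, by 0.20 to 0.28. Of the cell type markers, the receptor gene Cckbr was higher in the same window, at 10.24 to 11.62 with gastrin and 10.004 to 10.50 in controls. There 4.68% of all probes passed as higher and 4.53% as lower. Among the other marker lists 1 of 10 acinar genes was higher, at a mean level of 12.25 to 12.67 with gastrin and 12.21 to 12.53 in controls. Lower were 1 of 9 neuroendocrine genes, at 7.71 to 8.10 with gastrin and 7.76 to 8.22 in controls, and 1 of 4 hepatocyte genes, at 8.13 to 9.07 with gastrin and 7.97 to 9.28 in controls. Their part in the results was not tested.

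Over 4 to 8 h, with 11 pairs, gastrin lowered 8 of the 25 genes. Acat2 and Mvd of the mevalonate pathway, Fdft1 and Msmo1 of the sterol branch, and Acly, Acaca and Scd of fatty acid synthesis fell, as did the regulator gene Srebf2. Over all batches no gene of isoprenoid assembly (Idi1, Fdps, Ggps1) passed. With batches 2 and 3 alone all of these were lower, where 16.5% of all probes passed in either direction. In the lanosterol branch Msmo1 was lower over all batches, while Hsd17b7 was the 1 gene that rose. The calls over all batches were 8 lower and 1 higher of 25, where 5.33% of all probes passed as lower and 4.98% as higher. With the test limited to probes above the median level, 22.6% passed in either direction, as did 10 of the 24 genes kept. The median difference over the 25 genes was -0.10, with 6 above 0, against -0.0037 over all probes.

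Acly encodes ATP citrate lyase, which makes cytosolic acetyl-CoA for both routes. Its levels were 11.57 to 12.68 with a median of 11.94 in gastrin samples, and 12.12 to 12.68 with a median of 12.38 in controls. The low gastrin levels belonged to batches 2, 3 and 6, whose pairs differed by -0.80, -0.50 and -0.56 at 4 h, whereas batches 4 and 5 differed by -0.06 and -0.01. At 6 h the pairs of batches 2 to 5 differed by -0.58, -0.57, -0.12 and 0.14, and at 8 h those of batches 2 and 3 by -0.20 and -0.33. Acly fell by 0.31 ± 0.07 (SE, limma adjusted p = 0.00135), lower in 10 of 11 pairs.

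Acat2 had levels of 12.80 to 13.47 with a median of 13.06 with gastrin, and of 12.87 to 13.72 with a median of 13.51 in controls. All 11 pairs were lower, by -0.39 to -0.72 at 4 h outside batch 4, where the difference was -0.06, and by only -0.01 and -0.04 at 8 h. The fitted difference of Acat2 was -0.27 ± 0.06 (limma adjusted p = 0.00181). Mvd, mevalonate diphosphate decarboxylase, had levels of 11.14 to 12.21 with a median of 11.80 with gastrin, and of 11.21 to 12.35 with a median of 12.22 in controls. All 11 pairs of Mvd were lower, by -0.06 to -0.51, with a fitted difference of -0.26 ± 0.06 (limma adjusted p = 0.0021). For both genes the ranges of the groups overlapped.

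Scd, stearoyl-CoA desaturase, had levels of 12.01 to 12.58 with a median of 12.37 with gastrin, and of 12.17 to 12.95 with a median of 12.65 in controls. Its pairs of batches 2 and 3 differed by -0.51 to -0.64 at 4 and 6 h, and those of batches 4 and 5 by -0.17 to 0.03. Scd fell by 0.25 ± 0.07 (limma adjusted p = 0.0134), lower in 10 of 11 pairs. Fdft1, squalene synthase, differed by -0.24 ± 0.05 (adjusted p = 0.00123, 10 of 11 pairs), and Msmo1, a methyl sterol oxidase of the lanosterol branch, by -0.17 ± 0.05 (adjusted p = 0.0263, 9 of 11 pairs). Acaca, acetyl-CoA carboxylase, differed by -0.16 ± 0.04 (adjusted p = 0.0105, 9 of 11 pairs). Srebf2 differed by -0.15 ± 0.04 (adjusted p = 0.0223, 9 of 11 pairs), and its pairs ran from -0.43 in batch 3 at 6 h to 0.07 in batch 3 at 4 h.

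Hsd17b7 encodes a reductase that acts on a keto sterol in the lanosterol branch. Its levels were 7.94 to 9.97 with a median of 8.54 with gastrin, and 7.95 to 9.70 with a median of 8.24 in controls. It was higher in 9 of 11 pairs by 0.18 ± 0.05 (limma adjusted p = 0.0225), most in batch 5 at 6 h with 0.48, and the pair of batch 3 at 4 h differed by -0.18. The other 16 genes did not pass: their differences lay between -0.18 for Sc5d and 0.14 for Insig2. Among them were the regulators Srebf1 at 0.09 and Scap at -0.10.

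Without batch 2 none of the 25 passed in limma at 4 to 8 h (8 unadjusted, 3.76% of all probes), and without batch 3 none passed (8 unadjusted, 3.36%). The calls of Srebf2 and Hsd17b7 were also lost without batch 5 and with batches 2 and 3 alone. With batches 2 and 3 alone 16 were lower and none higher, where 16.5% of all probes passed against 10.3% with all batches. Among the 16 were Idi1, Fdps and Ggps1, and Dhcr7, Tm7sf2, Nsdhl, Sc5d and Ebp of the lanosterol branch. Over the 15 alternatives the difference of Mvd lay between -0.30 and -0.24 and that of Acat2 between -0.36 and -0.23. Of the 10 acinar markers 5 were higher and 1 lower in the same comparison, where 4.98% of all probes passed as higher and 5.33% as lower. The mean level over the acinar list was 12.38 to 13.35 in gastrin samples and 12.19 to 13.05 in controls. Of 9 neuroendocrine markers 2 were higher, at 7.91 to 8.23 with gastrin and 7.87 to 8.17 in controls. The ductal marker Krt19, 1 of 2, was lower, with the list at 6.80 to 8.71 with gastrin and 7.09 to 9.03 in controls, and so was 1 of 4 hepatocyte markers, at 7.85 to 9.21 with gastrin and 7.89 to 9.37 in controls. Their part in the results was not tested. Each level is relative to total RNA on the array, so fewer cells of a kind and less RNA per cell cannot be told apart.

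**Figure D2:**
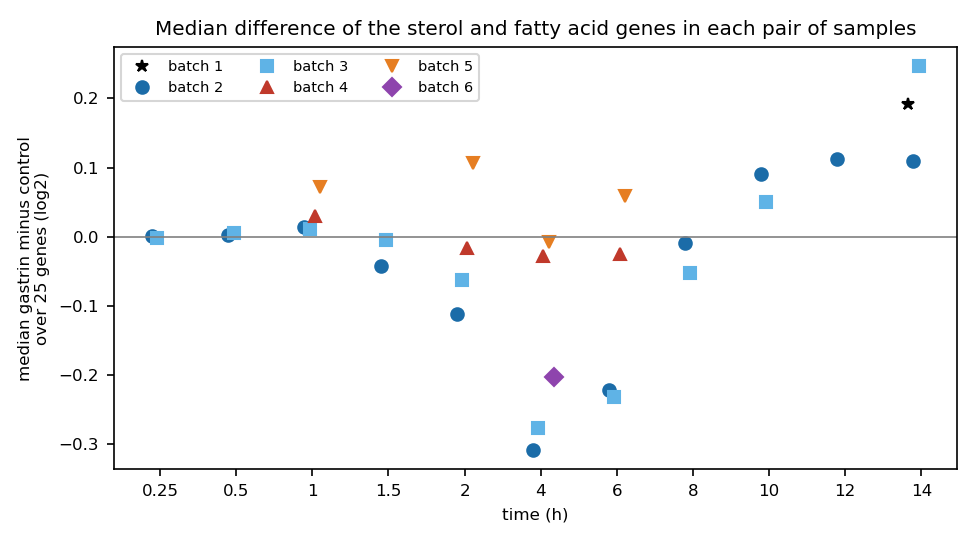
Median of the difference between gastrin and control over 25 genes (log2, vertical axis) in each pair of samples, by hour (horizontal axis) and batch (symbol). At 4 and 6 h batches 4 and 5 lie between -0.03 and 0.06, batch 6 at -0.20, and batches 2 and 3 between -0.31 and -0.22; at 10 to 14 h all 6 pairs lie above 0.

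The batches differed in the size of this fall. At 4 h the median over the 25 genes was -0.03 in batch 4, -0.01 in batch 5 and -0.20 in batch 6, with 14, 13 and 21 genes below 0. It was -0.31 in batch 2 and -0.28 in batch 3, with 20 and 22 genes below 0. At 6 h it was -0.02 and 0.06 in batches 4 and 5, and -0.22 and -0.23 in batches 2 and 3. By 8 h it was -0.01 and -0.05 in batches 2 and 3.

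The difference itself was tested at 4 and 6 h, batches 4 to 6 minus batches 2 and 3, a comparison chosen after the data were seen. Of the 25 genes 9 had a higher gastrin difference in batches 4 to 6 and none a lower one, where 2.3% of all probes passed as higher. Idi1, isopentenyl diphosphate isomerase, had the largest difference of the 25, 0.67 ± 0.09 (SE, limma adjusted p = 1.09e-05). Between gastrin and control its pairs of batches 4 and 5 differed by 0.08 and 0.15 at 4 h, then by 0.37 and 0.31 at 6 h, and that of batch 6 by -0.19, while the pairs of batches 2 and 3 gave -0.62 and -0.49 at 4 h, then -0.47 and -0.38 at 6 h. Nsdhl, a sterol dehydrogenase, differed between the batches by 0.54 ± 0.08 (adjusted p = 7.99e-05), Acly by 0.51 ± 0.09 (adjusted p = 0.000669) and Scd by 0.45 ± 0.10 (adjusted p = 0.00293). Dhcr7, the reductase of the last step to cholesterol, differed by 0.43, the sterol isomerase gene Ebp by 0.41, Sqle by 0.38, Msmo1 by 0.37 and Sc5d by 0.33. Without batch 2 the number was 2 (0.764% of all probes in either direction), and without batch 3 it was 5 (1.11%). At 6 h alone, where all arrays carry the same title series, Idi1, Acly, Nsdhl, Scd, Dhcr7, Sqle and Fdft1 passed, 7 genes where 1.3% of all probes passed in either direction. At 4 h alone Idi1, Nsdhl, Ebp and Ggps1 passed, 4 genes where 1.29% did.

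In the same fit 5 of the 25 genes were lower with gastrin and 3 higher in batches 4 to 6, where 5.29% of all probes passed as lower and 4.91% as higher. The 5 were Acat2 at -0.28, Mvd at -0.25, Stard4 at -0.21, Srebf2 at -0.20 and Fdft1 at -0.17, and the 3 were Hsd17b7 at 0.25, Insig2 at 0.20 and Nsdhl at 0.18. In batches 2 and 3, 16 genes were lower and none higher, where 7.33% of all probes passed as lower. Acat2, Mvd, Fdft1 and Stard4 were thus lower in both sets of batches in this fit, which estimates the spread over all batches. In a fit of batches 4 to 6 alone none of the 25 passed (7 unadjusted, limma), where 3.19% of all probes did.

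Over 10 and 14 h, with 5 pairs of batches 1 to 3, gastrin changed some genes of the pathway and of sterol control. Tm7sf2, Msmo1, Nsdhl, Ebp and Dhcr7 of the lanosterol branch did not pass, nor did Srebf1 and Srebf2. Cyp51, Sc5d, Hsd17b7, Sqle and Fdps of the pathway rose, as did Insig2 and Stard4, and Scap fell. All 8 moved the same way in all 5 pairs. These were 7 higher and 1 lower of 25, where 3.78% of all probes passed as higher and 3.74% as lower. With the test limited to probes above the median level, 16.3% passed in either direction, as did 9 of the 24 genes kept. The median difference over the 25 genes was 0.12, with 17 above 0, against -0.00087 over all probes.

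Cyp51, the lanosterol demethylase, had levels of 7.93 and 7.62 at 10 h in batches 2 and 3 and of 8.002, 8.005 and 7.85 at 14 h in batches 1 to 3 with gastrin. The matching controls had 7.48 and 7.48 at 10 h and 7.46, 7.55 and 7.42 at 14 h. The groups did not overlap, and the lowest gastrin level was that of batch 3 at 10 h. Cyp51 rose by 0.39 ± 0.09 (SE, limma adjusted p = 0.00555). Sc5d, the sterol desaturase that acts after the isomerase step, had 11.51 and 11.14 at 10 h and 11.70, 11.59 and 11.36 at 14 h with gastrin. Its controls had 11.22 and 11.09 at 10 h and 11.27, 11.09 and 10.84 at 14 h. Those groups overlapped, through the 10 h pair of batch 3, which differed by 0.05, and Sc5d rose by 0.33 ± 0.09 (adjusted p = 0.0298).

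Stard4 had 11.47 and 11.57 at 10 h and 11.63, 11.43 and 11.59 at 14 h with gastrin. Its controls had 11.24 and 11.17 at 10 h and 11.33, 11.19 and 11.16 at 14 h. The groups did not overlap, and Stard4 rose by 0.32 ± 0.05 (limma adjusted p = 0.000174). Hsd17b7 had 8.58 and 8.53 at 10 h and 8.50, 8.07 and 8.63 at 14 h with gastrin, against 8.26 and 8.16 at 10 h and 8.40, 7.70 and 8.21 at 14 h for controls. Its groups overlapped because both samples of batch 2 at 14 h were low, and it rose by 0.32 ± 0.07 (adjusted p = 0.00652). The gene thus rose at 4 to 8 h and again at 10 and 14 h.

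Insig2, whose protein retains SCAP in the endoplasmic reticulum, rose by 0.30 ± 0.07 (limma adjusted p = 0.0125), with pairs between 0.13 and 0.46. Sqle, squalene epoxidase, rose by 0.26 ± 0.07 (adjusted p = 0.018), with pairs between 0.13 and 0.35. Fdps, farnesyl diphosphate synthase, rose by 0.19 ± 0.06 (adjusted p = 0.048), with pairs between 0.07 and 0.32. Scap, the carrier of the SREBPs, had 9.87 and 9.94 at 10 h and 10.23, 9.90 and 9.91 at 14 h with gastrin, against 10.12 and 10.24 at 10 h and 10.44, 10.16 and 10.21 at 14 h for controls. All its gastrin levels were below all control levels except that of batch 1, and Scap fell by 0.27 ± 0.07 (adjusted p = 0.0243).

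The other 17 genes lay between -0.21 for Ggps1, geranylgeranyl diphosphate synthase, and 0.24 for Idi1, and did not pass. Acly and Acaca, lower at 4 to 8 h, had 0.13 and 0.14, Scd had -0.07, Acat2 -0.02 and Mvd -0.15. In the pair of batch 2 at 12 h, which has no test, 17 of 25 genes were above 0 with a median of 0.11. Idi1 differed there by 0.65, Hsd17b7 by 0.59, Cyp51 by 0.52, Sc5d by 0.49 and Scap by -0.33.

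Without batch 2 Stard4 alone passed at 10 and 14 h (0.408% of all probes), and without batch 3 none passed (8 unadjusted, limma, 1.41% of all probes). In the 3 pairs that hold no array standing apart Stard4 alone passed (2.8% of all probes). Of the 10 acinar markers 3 were higher and none lower, where 3.78% of all probes passed as higher and 3.74% as lower. The mean level of the acinar list was 12.83 to 13.01 with gastrin and 12.42 to 12.71 in controls. Of the hepatocyte markers 2 of 4 were lower, at 8.58 to 9.25 with gastrin and 8.74 to 9.48 in controls. Krt19 of the 2 ductal markers was lower, with the list at 8.19 to 8.60 with gastrin and 8.46 to 8.94 in controls. Their part in the results was not tested.

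The change between the windows was tested directly as the gastrin difference at 10 and 14 h minus that at 4 to 8 h. It was above 0 for 22 of the 25 genes, with a median of 0.22 against -0.0012 over all probes. Sc5d, Acly, Stard4, Sqle, Acaca and Fdps passed, all 6 upward, where 1.01% of all probes passed upward. With the test limited to probes above the median level, 3.6% passed in either direction, as did 7 of the 24 genes kept. The 2 windows share no samples, while batches 2 and 3 enter both. Genes and windows were chosen with earlier results of these data known, so this contrast is no independent test of a fall and a later rise.

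Sc5d had the largest change of the 25 genes, 0.51 ± 0.12 (SE, limma adjusted p = 0.0195). Acly changed by 0.44 ± 0.11 (adjusted p = 0.0424) and Acaca by 0.30 ± 0.07 (adjusted p = 0.0323), so enzymes of fatty acid synthesis were among those that passed although neither was higher at 10 and 14 h by its own test. Stard4 changed by 0.42 ± 0.06 (adjusted p = 0.000426), Sqle by 0.35 ± 0.09 (adjusted p = 0.0281) and Fdps by 0.29 ± 0.07 (adjusted p = 0.0409). Without batch 2 none of these passed, and without batch 3 none passed, with 7 unadjusted each in limma, where 0.00444% and 0.0577% of all probes passed. Without the pairs that hold an array standing apart Stard4 alone passed, where 0.324% of all probes did.

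**Figure D3:**
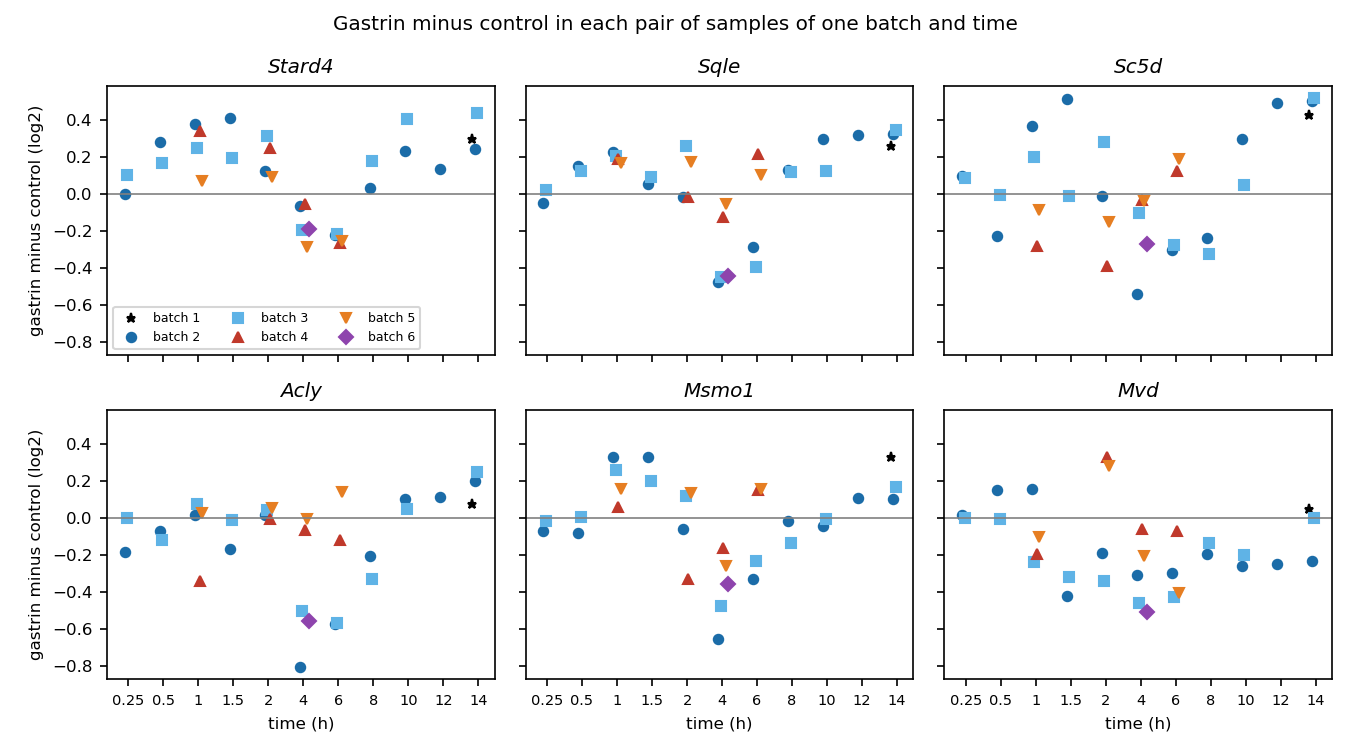
Difference between gastrin and control (log2, vertical axis) in each pair of samples of one batch and hour for 6 genes, with batches as symbols. Stard4 lies at or above 0 up to 2 h in every pair, between -0.28 and -0.05 at 4 and 6 h and above 0 from 8 h; Acly lies between -0.80 and -0.50 at 4 h in batches 2, 3 and 6 and near 0 in batches 4 and 5; Mvd is below 0 in all 11 pairs at 4 to 8 h.

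Cycloheximide stops protein synthesis, and batches 4 to 6 held it alone and with gastrin. These samples and the gastrin samples of the same batches share their controls. Over 1 and 2 h, with 4 pairs, cycloheximide alone raised Srebf1, Fdft1, Stard4 and Ggps1 and lowered Insig2. These were 5 of 25 genes, where 6.55% of all probes passed as higher and 6.85% as lower. With the test limited to probes above the median level, 27.4% passed in either direction, as did 6 of the 24 genes kept.

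With cycloheximide, Srebf1 in batches 4 and 5 had 11.16 and 10.98 at 1 h and 11.72 and 11.55 at 2 h. Its controls had 10.90 and 11.02 at 1 h and 10.94 and 10.69 at 2 h. The 2 h samples with cycloheximide were above all controls, and Srebf1 rose by 0.46 ± 0.14 (SE, limma adjusted p = 0.0268), higher in 3 of 4 pairs. Fdft1 had 11.17 in both batches at 1 h and 11.05 and 10.87 at 2 h with cycloheximide, against 10.19 and 10.51 at 1 h and 10.90 and 10.96 at 2 h for controls. It was high at 1 h and not at 2 h, with a difference over both hours of 0.42 ± 0.13 (adjusted p = 0.0305).

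Stard4 had 11.37 and 11.46 at 1 h and 11.45 and 11.49 at 2 h with cycloheximide, against 11.13 and 11.27 at 1 h and 10.80 and 11.10 at 2 h for controls. The groups did not overlap, and Stard4 rose by 0.37 ± 0.09 (limma adjusted p = 0.00829). Ggps1 was higher by 0.60 and 0.52 at 1 h and differed by -0.16 and -0.04 at 2 h, 0.23 ± 0.07 over both (adjusted p = 0.0369). Insig2 had 8.02 and 7.93 at 1 h and 8.20 and 8.10 at 2 h with cycloheximide, against 8.54 and 8.43 at 1 h and 8.34 and 8.47 at 2 h for controls. All 4 of its pairs were lower and the groups did not overlap, with a difference of -0.38 ± 0.10 (adjusted p = 0.0126). Both 2 h controls and the 2 h cycloheximide array of batch 4 stand apart. Leaving out the pairs that hold such an array keeps both 1 h pairs and no 2 h pair. Ggps1, Fdft1 and Sqle then passed as higher and Insig2 as lower, where 7.43% of all probes passed in either direction. Without batch 5 none of the 25 genes passed (5 unadjusted, limma), and without batch 4 Srebf1 and Insig2 passed.

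Over 4 and 6 h, with 5 pairs, cycloheximide lowered genes of the pathway and of its control, at hours when it moved many other genes too. Sqle and Msmo1 of the sterol branch and the control genes Scap, Srebf2 and Insig2 had the lowest differences, and Acly rose. Of the 25 genes 12 were lower and 1 higher, where 13.3% of all probes passed as lower and 12.3% as higher. With the test limited to probes above the median level, 49.2% passed in either direction, as did 15 of the 24 genes kept. The median difference was -0.31, against -0.01 over all probes.

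With cycloheximide, Sqle had 11.31, 11.16 and 10.80 at 4 h in batches 4, 5 and 6, and in batches 4 and 5 it had 10.85 and 10.37 at 6 h. Its controls had 11.65, 11.79 and 11.72 at 4 h and 11.83 and 11.98 at 6 h. The groups did not overlap and the pairs differed most at 6 h, by -0.98 and -1.62, and Sqle fell by 0.97 ± 0.10 (SE, limma adjusted p = 1.63e-07). Msmo1 had 11.88, 11.84 and 12.25 at 4 h and 11.95 and 10.64 at 6 h with cycloheximide, against 12.15, 12.70 and 13.01 at 4 h and 12.46 and 12.50 at 6 h for controls. The groups overlapped only through batch 4 at 4 h and batch 6, the sample of batch 5 at 6 h lay far below the rest, and Msmo1 fell by 0.91 ± 0.16 (adjusted p = 0.000142).

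Scap had 9.64, 9.69 and 9.69 at 4 h and 9.43 and 9.25 at 6 h with cycloheximide, against 10.45, 10.11 and 10.17 at 4 h and 10.30 and 10.08 at 6 h for controls. The groups did not overlap, and Scap fell by 0.71 ± 0.10 (limma adjusted p = 8.51e-06). Srebf2 had 7.17, 7.50 and 6.69 at 4 h and 8.09 and 7.62 at 6 h with cycloheximide, against 7.67, 7.92 and 7.72 at 4 h and 8.42 and 8.66 at 6 h for controls. Its groups overlapped across hours, every pair was lower, and Srebf2 fell by 0.67 ± 0.09 (adjusted p = 7.71e-06). Insig2 was lower in all 5 pairs by -0.61 ± 0.09 (adjusted p = 1.97e-05) and Hsd17b7 in all 5 by -0.51 ± 0.08 (adjusted p = 6.17e-05).

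Idi1 differed by -0.52 ± 0.13 (limma adjusted p = 0.00394, 4 of 5 pairs), Scd by -0.47 ± 0.08 (adjusted p = 4.34e-05), Nsdhl by -0.41 ± 0.08 (adjusted p = 0.00062, 4 of 5 pairs) and Mvd by -0.36 ± 0.12 (adjusted p = 0.0291). Ebp at -0.36 and Tm7sf2, a sterol reductase gene, at -0.34 were also lower. Acly had 12.94, 12.96 and 12.30 at 4 h and 12.51 and 12.76 at 6 h with cycloheximide, against 12.64, 12.68 and 12.12 at 4 h and 12.32 and 12.38 at 6 h for controls. It was higher in every pair while the groups overlapped across batches, and rose by 0.27 ± 0.08 (adjusted p = 0.0115). Stard4 had a difference of 0.22 (adjusted p = 0.06) and Srebf1 of 0.29 (adjusted p = 0.108), and did not pass.

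Without batch 5, 5 genes passed as lower at 4 and 6 h (Srebf2, Scap, Hsd17b7, Sqle and Scd), where 13.4% of all probes passed in either direction. Without the pairs that hold an array standing apart 14 were lower and 1 higher, where 24.1% of all probes passed. The median over the 25 genes was -0.42 and -0.46 in batch 5 and -0.34 in batch 6, and 0.01 and -0.06 in batch 4. Of the acinar markers 4 of 10 were higher and 1 lower, where 12.3% of all probes passed as higher and 13.3% as lower. The mean level of the acinar list was 12.42 to 13.09 with cycloheximide and 12.19 to 13.05 in controls. Of the hepatocyte markers 2 of 4 were lower, at 7.66 to 8.35 with cycloheximide and 7.89 to 8.73 in controls. Of 9 neuroendocrine markers 1 was higher and 2 lower, at 7.74 to 8.20 with cycloheximide and 7.87 to 8.17 in controls, and Krt19 of the 2 ductal markers was lower, with the list at 6.94 to 8.35 with cycloheximide and 7.09 to 9.03 in controls. Their part in the results was not tested.

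**Figure D4:**
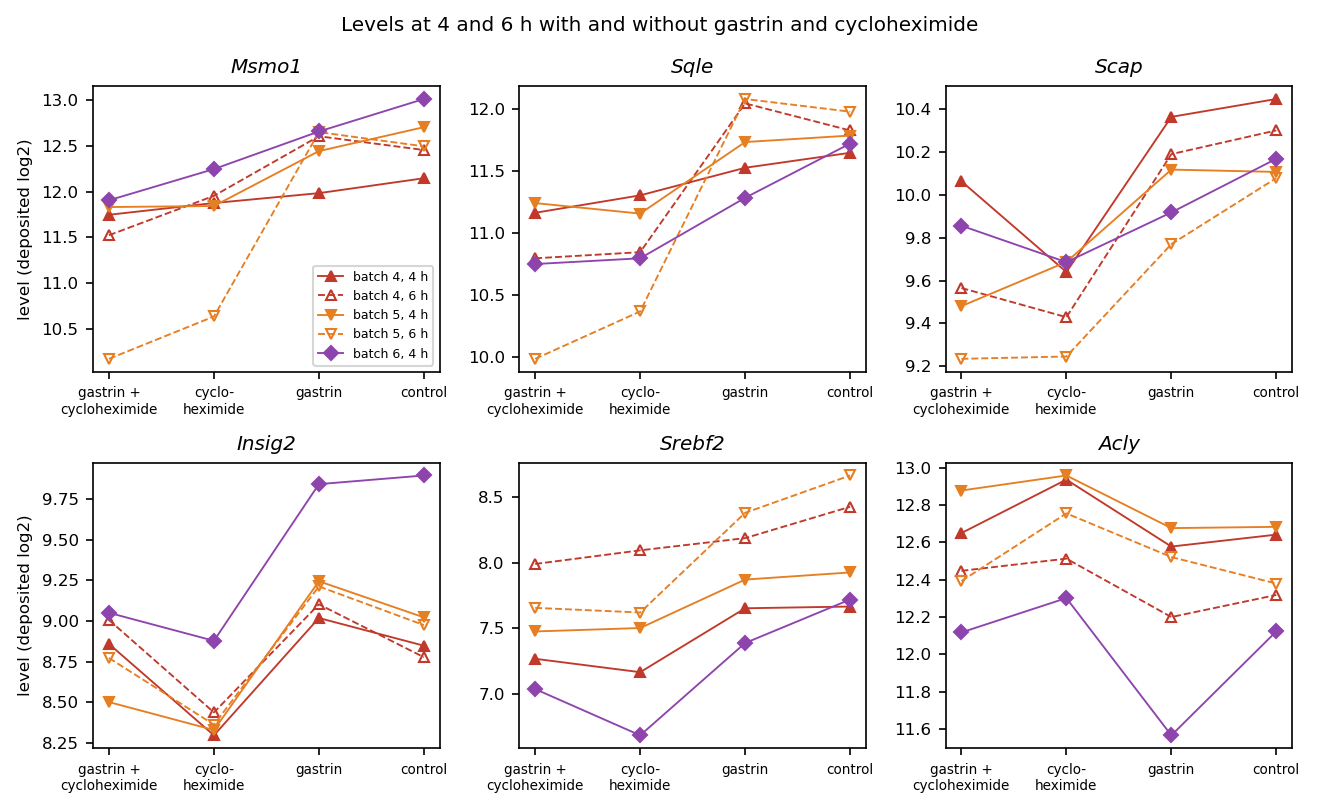
Deposited log2 level (vertical axis) of 6 genes with gastrin and cycloheximide, cycloheximide, gastrin and no stimulus, with a line for each batch and hour at 4 and 6 h. Sqle and Scap lie lower in every sample with cycloheximide than in the control of its own batch and hour; Insig2 is higher with gastrin and cycloheximide than with cycloheximide alone on all 5 lines.

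When gastrin was given with cycloheximide, 1 gene of the 25 differed from cycloheximide alone. Over 4 and 6 h Insig2 had 8.86, 8.50 and 9.05 at 4 h and 9.01 and 8.77 at 6 h with both agents, against 8.30, 8.33 and 8.88 at 4 h plus 8.44 and 8.36 at 6 h with cycloheximide alone. All 5 pairs were higher, by 0.17 to 0.57, and the groups overlapped because batch 6 was high under both treatments. Insig2 rose by 0.40 ± 0.09 (SE, limma adjusted p = 0.0143), where 2.17% of all probes passed as higher. The call was lost without batch 4 and without batch 5, with none of the 25 passing in either (6 and 4 unadjusted, 1.7% and 0.657% of all probes). It was also lost without the pairs that hold an array standing apart (7 unadjusted, 3.37% of all probes).

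Genes lower with gastrin alone at 4 to 8 h did not pass under cycloheximide: with both agents against cycloheximide Acat2 had -0.02, Mvd 0.11, Scd -0.03, Acly -0.20 and Fdft1 -0.16. Whether the gastrin difference itself depended on cycloheximide was tested in batches 4 to 6, and none of the 25 genes passed in limma (5 unadjusted), where 0.369% of all probes did. In the fit of batches 4 to 6 alone, which this test uses, the gastrin difference without cycloheximide also had none of the 25 past the threshold (7 unadjusted), where 3.19% of all probes passed. The same gastrin and control samples in the fit of all batches, given above, had 5 lower, among them Acat2, Mvd and Fdft1, and 3 higher, where 10.2% of all probes passed. Over 1 and 2 h none of the 25 passed with both agents against cycloheximide (3 unadjusted, 0.0799% of all probes), and none in the test of the dependence on cycloheximide (3 unadjusted, 0.302% of all probes). At these hours too the gastrin difference without cycloheximide had none of the 25 past the threshold in the same fit (4 unadjusted, 2.7% of all probes).

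Untreated cells of batches 2 and 3 also changed over these hours. The controls at 8, 10 and 14 h were set against those at 0, 0.25 and 0.5 h, 6 samples each, with the batch as a block. Nsdhl, Acly, Sqle and Tm7sf2 were lower late and Msmo1 and Fdps were higher, 6 of 25 genes, where 5.2% of all probes passed as lower and 5.04% as higher.

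Nsdhl had late levels of 9.74 to 10.01 with a median of 9.91, and early levels of 10.17 to 10.40 with a median of 10.28. The groups did not overlap, and Nsdhl fell by 0.38 ± 0.06 (SE, limma adjusted p = 0.000198). Acly had late levels of 12.14 to 12.33 with a median of 12.23 and early levels of 12.33 to 12.52 with a median of 12.47, touching at their edges, and fell by 0.22 ± 0.05 (adjusted p = 0.00524). Sqle had late levels of 11.41 to 11.55 with a median of 11.51 and early levels of 11.55 to 11.83 with a median of 11.71, also touching at their edges, and fell by 0.20 ± 0.05 (adjusted p = 0.0142).

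Msmo1 had late levels of 12.69 to 13.05 with a median of 12.88 and early levels of 12.51 to 12.73 with a median of 12.59. The overlap was slight, and Msmo1 rose by 0.26 ± 0.06 (limma adjusted p = 0.0131). Fdps had late levels of 11.45 to 11.66 with a median of 11.63 and early levels of 11.08 to 11.59 with a median of 11.36, and rose by 0.24 ± 0.07 (adjusted p = 0.0279). Tm7sf2 had late levels of 11.73 to 12.11 and early levels of 12.07 to 12.20, and fell by 0.20 ± 0.06 (adjusted p = 0.0273). That holds for its brighter probe: with its 2 probes averaged Tm7sf2 did not pass, and 5 of the 25 genes did. Without batch 2 Nsdhl alone passed (1.11% of all probes), and without batch 3 there were 7 (9.81%). With the controls at 10 and 14 h set against those at 0 to 2 h, the calls of Sqle and Fdps were lost. In that setting 4 of the 25 genes passed, as did 8.77% of all probes. Sqle was lower late in all 9 alternatives, with differences of -0.21 to -0.16. Sqle was higher with gastrin than in its own controls at 10 and 14 h, and the part of the change in untreated cells in that result was not tested.

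**Figure D5:**
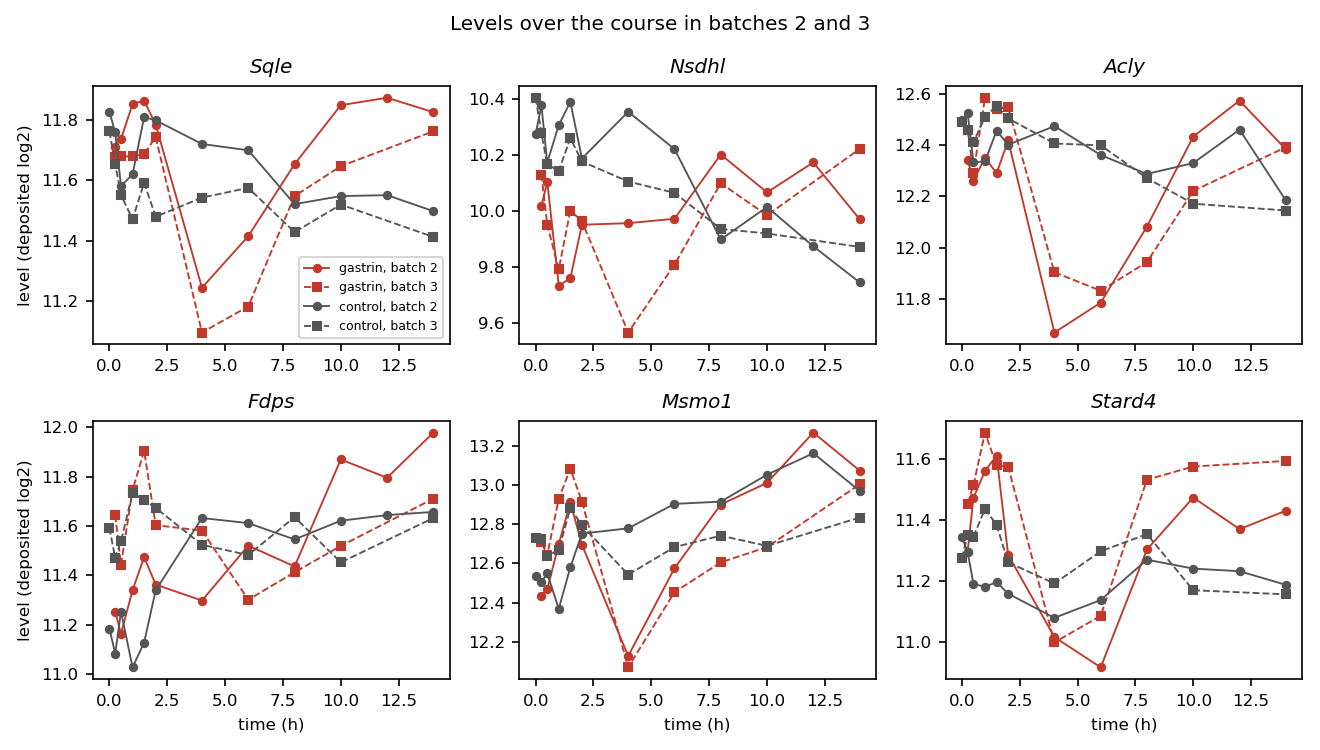
Deposited log2 level (vertical axis) of 6 genes over the hours (horizontal axis) in batches 2 and 3, with gastrin in red and control in grey. Sqle and Acly with gastrin lie below the controls at 4 and 6 h and above them at 10 and 14 h in both batches, while the controls of Nsdhl drift lower over the course.

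Other genes of lipid metabolism were taken from lists, 2 of which are given here. Of all probes 5.33% passed as lower and 4.98% as higher with gastrin at 4 to 8 h, and 4.53% and 4.68% at 0.5 to 2 h. At 10 and 14 h the shares lower and higher were 3.74% and 3.78%, and with cycloheximide at 4 and 6 h 13.3% and 12.3%. Of 11 further SREBP targets with a probe, 4 were lower and 1 higher with gastrin at 4 to 8 h, with a median of -0.17: Lpin1, a phosphatidate phosphatase, at -0.40 ± 0.05 (SE, limma adjusted p = 5.88e-07), the desaturase gene Fads1 at -0.29, Tmem97 at -0.25 and the acyl-CoA synthetase gene Acsl3 at -0.23, against Mid1ip1, a partner of acetyl-CoA carboxylase, at 0.15. At 0.5 to 2 h 6 were lower and Mid1ip1 was higher by 0.35. The 6 were Rdh11 at -0.40, Lpin1 at -0.27, Elovl5 at -0.24, Fads1 at -0.22, Fads2 at -0.21 and Me1 at -0.16. The batches did not share this fall. In the fit of batches 4 to 6 alone, at 1 and 2 h, none of the 11 was lower and Elovl5 was higher. The median there was 0.07, with 6 of 11 above 0, and 1.36% of all probes passed as lower and 1.34% as higher. At 10 and 14 h none of the 11 passed (3 unadjusted, limma), with a median of 0.00. Cycloheximide at 4 and 6 h lowered 6 of the 11 and raised none: Me1, malic enzyme, at -0.70, Rdh11 at -0.54, Fads2 at -0.46, Lpin1 at -0.45, Tmem97 at -0.41 and Acsl3 at -0.36.

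Of 16 genes of sterol sensing, uptake and efflux, 2 were higher and 5 lower with gastrin at 4 to 8 h, where 4.98% of all probes passed as higher and 5.33% as lower. Abca1, which exports cholesterol, was higher by 0.39 ± 0.07 (SE, limma adjusted p = 0.000107, 11 of 11 pairs) and Nr1h3, the gene of the sterol receptor LXR alpha, by 0.19. Npc2 and Npc1, which bring cholesterol out of lysosomes, were at -0.26 and -0.24, Mbtps1, the protease that first cleaves SREBP, at -0.22, Nceh1, a cholesteryl ester hydrolase, at -0.18 and Erlin1 at -0.13. Abca1 was the gene of this list that passed as higher with gastrin and cycloheximide against cycloheximide at 4 and 6 h, by 0.80 ± 0.13 (adjusted p = 0.000286), while Rnf139, a ubiquitin ligase gene, was at -0.46. At 10 and 14 h Rnf139 was higher by 0.32, and the exporter gene Abcg1 at -0.41 and Mbtps1 at -0.22 were lower.

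Of the 25 genes, 17 passed in at least 1 of the gastrin windows, as did 20.6% of all probes, and 8 in none: Pmvk, Idi1, Ggps1, Tm7sf2, Nsdhl, Ebp, Dhcr7 and Elovl6. Of these 8, Idi1, Ggps1, Tm7sf2, Nsdhl and Ebp passed in a cycloheximide window, as did 31.2% of all probes. Pmvk, phosphomevalonate kinase, Dhcr7 and Elovl6, a fatty acid elongase, passed in neither, and the probe of Elovl6 was dim, at percentile 11.1 of all probes.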

How the data were processed

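Total RNA of AR42J cells was measured on 90 Illumina arrays. The values deposited by the authors are on a log2 scale, and the submitters' processing notes name lumi 2.4.0. The sources used here do not say if lumi's variance stabilisation or a plain log2 was applied, so differences are in the deposited unit. Scanner intensities and detection calls were not used here. The platform annotation gave 1 symbol to 13793 probes and none to 8730.

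Differences were fitted to all probes with limma 3.58.1 (lmFit and eBayes) in R 4.3.3, with batch and hour together as the block and the hours of a window weighted equally. Technical replicates in batch 6 were averaged, and so were 1 h arrays of a batch and stimulus in the gastrin fits; the cycloheximide fits used the 1 h title series that holds all 4 stimuli. The labels name the batch, and gastrin and control samples of a batch and hour deviated together from the means of their stimulus and hour (correlations of 0.45 to 0.923). The number of arrays limits the precision.

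The genes, the lists and the comparisons were chosen with earlier results of these data known. Genes that passed were named, at most 10 each way by size, with values per sample for the 4 largest differences each way, and at most 6 of a further list. Alternatives were no replicate block, an additive block, trend and robust options, array weights, a filter on dim probes, averaged probes per gene, centring on 1000 invariant probes, batches 2 and 3 alone, and leaving out each batch or the arrays that stand apart. The test between batches and the alternatives by hour, 4 h or 6 h alone among them, were added after seeing the data.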

Additional observations from a re-analysis of the deposited data

Results flagged for a closer look

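Of 100 sets of 5 pairs examined for a pair far from the rest, 2 held one, and chance alone gives about 1 set in 20. Cyp51 at 10 and 14 h differed between gastrin and control by 0.147517 in batch 3 at 10 h, where the nearest of the other 4 pairs had 0.428545. Elovl6 at 4 and 6 h differed between gastrin with cycloheximide and cycloheximide alone by -0.0687691 in batch 4 at 6 h, where the nearest pair had 0.0373746.

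In 6 genes the gastrin difference at 10 and 14 h was higher than that at 4 to 8 h by limma's test of the change, between windows chosen with earlier results of these data known. The change was 0.507495 for Sc5d, 0.436284 for Acly, 0.41841 for Stard4, 0.352597 for Sqle, 0.30147 for Acaca and 0.290367 for Fdps. The number that passed was 0 without batch 2 and 0 without batch 3, with 7 unadjusted p under 0.05 in each.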

How the results depend on the processing

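Over 793 values of single genes under the alternatives, 596 kept their direction and their side of the threshold, 196 kept their direction and no longer passed, and 1 turned: Srebf1 at 0.5 to 2 h, at -0.022 in the 4 pairs that hold no array standing apart, which are at 0.5 h in batches 2 and 3 and at 1 h in batches 4 and 5, so hours and batches change with the arrays. With no replicate block, 0 of the 25 genes passed at 0.5 to 2 h, 4 to 8 h and 10 and 14 h (4, 3 and 3 unadjusted in limma), 0 in the change between windows (4 unadjusted), 1 over the single hours, 0 with cycloheximide at 1 and 2 h (4 unadjusted), 8 at 4 and 6 h, and 0 with both agents against cycloheximide at 4 and 6 h (3 unadjusted). With batch as an additive block the counts were 1, 4, 1, 1 and 9 in the gastrin windows, the change and the single hours. Array weights gave 5 at 0.5 to 2 h. Leaving out each batch and hour with an array that stands apart gave 0 at 0.5 to 2 h, 1 at 10 and 14 h, 1 in the change and 0 with both agents. Batches 2 and 3 alone gave 13, 16, 13, 16 and 67, where 26.6%, 16.5%, 16% and 8.46% of all probes passed in the windows and the change. The test between batches gave 4 at 4 h alone. The filter on dim probes gave 2 with both agents at 4 and 6 h.

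Leaving out 1 batch in turn gave 0 to 8 genes at 0.5 to 2 h, 0 to 11 at 4 to 8 h, 0 to 8 at 10 and 14 h, 0 to 8 in the change and 2 to 26 over the single hours, where 21 passed with all batches. It gave 0 to 4 with cycloheximide at 1 and 2 h, 5 to 17 at 4 and 6 h, 0 to 1 with both agents, 2 to 12 in the test between batches and 1 to 7 in untreated cells. Other causes of these shifts than the samples left out were not tested. Dim probes, Elovl6 among them, have an unknown signal over background.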

Other observations

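Genes of fatty acid oxidation moved in both directions with gastrin. At 4 to 8 h 3 of the 13 with a probe were higher and 4 lower, where 4.98% of all probes passed as higher and 5.33% as lower. Ech1, a dienoyl-CoA isomerase of peroxisomes and mitochondria, was higher in 11 of 11 pairs by 0.64 ± 0.04 (SE, limma adjusted p = 1.19e-11), and Acadm and Acadvl, acyl-CoA dehydrogenases, were higher by 0.11 each. Acadl was at -0.24, Cpt2 and Acaa2 at -0.21 each and Hadh at -0.20. At 10 and 14 h Ech1 was higher by 0.58 ± 0.06 (adjusted p = 3.62e-07), Acadm by 0.28 and Ppara by 0.16, while the carnitine carrier gene Slc25a20 was at -0.61 and Acaa2 at -0.21. With gastrin and cycloheximide Ech1 was higher than with cycloheximide alone by 0.41, and in untreated cells it was higher at 8 to 14 h than at 0 to 0.5 h by 0.43. Cycloheximide alone at 4 and 6 h raised 4 of the 13 and lowered 4, where 12.3% of all probes passed as higher and 13.3% as lower. Higher were Cpt1a, which admits fatty acids to mitochondria, by 0.76, and Hadhb, Acadl and Acadvl. Lower were Ech1, Acadm, Acaa2 and Slc25a20.

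Of 10 genes that use isoprenoid units for other products, 3 were higher and none lower with gastrin at 4 to 8 h: Fnta, a subunit of farnesyl and geranylgeranyl transferases, by 0.20, Dhdds, a dolichol synthesis gene, by 0.18 and Zmpste24 by 0.16. In that window 4.98% of all probes passed as higher and 5.33% as lower. Cycloheximide at 4 and 6 h raised 3 of the 10, Pggt1b by 0.82, Fnta by 0.72 and Rce1. It lowered 2, Zmpste24 and Dolk, where 12.3% of all probes passed as higher and 13.3% as lower. Of 12 genes of acyl chain activation and glycerolipid synthesis, Hacd3 at 0.25 and Dgat1 at 0.18 were higher and Acsl1 at -0.28 was lower at 4 to 8 h, and Dgat2, an enzyme of triglyceride synthesis, was at -0.55 ± 0.10 at 10 and 14 h.

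The 2 arrays of batch 3 at 12 h whose labels contradict each other had scores of 0.149 and 0.597 on the axis of arrays that stand apart. In that order their levels were 10.77 and 11.66 for Idi1, 7.31 and 7.73 for Cyp51, 10.91 and 11.46 for Sc5d, 11.24 and 11.52 for Sqle, 10.06 and 9.64 for Scap and 12.23 and 11.75 for Mvd.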
